A study of Homo sapiens with 12 samples.

Results

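The messages described here encode the proteins of the cytosolic ribosome. They were chosen by name as 60 gene identifiers, 31 of the small subunit (RPS2 to RPS29 and RPSA) and 29 of the large subunit (RPLP0, RPLP1, RPLP2 and RPL3 to RPL37A), out of 31707 genes with a value. The rule that lists them uses no measured value, although earlier results of these data were known when they were listed. Of the 60, 58 had values, 29 of each subunit, and the other 2 were not analysed here. RNA bound to ADAR3 was measured by RNA immunoprecipitation followed by sequencing in U373-MG, a human glioblastoma line grown in culture. In 4 libraries RNA was pulled down with antibody to ADAR3 (ADAR3 IP), in 4 with the pre-immune control, which gives the background of unspecific recovery (pre-immune IP), and 4 libraries held total RNA without pull-down (input). All 3 groups came from the same line, for which the labels name no treatment or genetic change, and shared ultraviolet crosslinking before lysis and sonication, depletion of ribosomal RNA and a strand-specific library kit. Input libraries began from 1 µg of total RNA and each pull-down from all RNA recovered, and the molecule label names polyA RNA, which differs from the depletion protocol. The labels number the libraries 1 to 4 in each group and do not say whether they came from separate cultures, so every p-value rests on library-to-library spread, which could be technical only.

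ADAR3, the product of ADARB2, is a member of the adenosine deaminase family that binds double-stranded RNA and is not known to edit it. Ribosomal protein messages are short, abundant, heavily translated and usually begin with a terminal oligopyrimidine (TOP) tract, through which growth signalling by mTOR and LARP1 sets their translation as a group. Their introns often carry the genes of small nucleolar RNAs, which guide the modification of ribosomal RNA, and processed pseudogenes of these messages are scattered through the genome.

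The starts of several members are shown because the TOP tract is the sequence feature that ties this family together. Each stretch holds 8 bases before and 18 bases from the outer gene start that RefSeq gives on GRCh38.p14, 5′ to 3′ on the gene's strand. Capitals mark the run of pyrimidines (C or T) that begins at that start with a C. RPS21, RPS12, RPS13 and RPLP1 are shown from the 5 members with the lowest ADAR3 IP level relative to pre-immune IP. RPS6 and RPL7A are shown from the 5 with the highest. RPL3, RPL4 and RPS28 are shown as members whose listed start lacked a tract by the rule used. Of these, RPL3 and RPL4 are also among the 5 highest. RPS20, also among the 5 lowest, had no outer start in the RefSeq promoter table.

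RPS21, chr20:62387095-62387120, plus strand: agctgcttCCTTTCTCTCTCgcgcgc
RPS12, chr6:132814561-132814586, plus strand: gatgaggcCTCTTTCCCTgccgccgc
RPS13, chr11:17077650-17077675, minus strand: ctcgctctCCTTTCgttgcctgatcg
RPLP1, chr15:69452810-69452835, plus strand: cgcgagagCCCCTTTCCTCagctgcc
RPS6, chr9:19380219-19380244, minus strand: agttggccCTCTTTTCCgtggcgcct
RPL7A, chr9:133348210-133348235, plus strand: tccctttcCTTTCTCTCTCCTCCCgc
RPL3, chr22:39319606-39319631, minus strand: cgaccggcCTCTaccggcgggatttg
RPL4, chr15:66504838-66504863, minus strand: ggagtggtaagcacttccttttcctg
RPS28, chr19:8321488-8321513, plus strand: agcacgtgactcctctccgccagacc

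A TOP start was counted where the gene start was a C followed by at least 4 further pyrimidines on the gene's strand. All 60 members were found in RefSeq by symbol, and 44 had their outer start in the RefSeq promoter table. Of these, 29 (65.9%) had a TOP start, against 632 of 13820 protein-coding genes in the same table (4.57%). The tracts were 6 to 16 bases long, with a median of 9. RPL3 began with a C but its run ended after 4 bases, and RPL4 and RPS28 did not begin with a C. A match is a description of the annotated start and not of the start used in these cells. With every start in that table counted and not only the outer one, 32 of 46 members had a TOP start. The share over all genes was not computed for that count.

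Some members also hold genes of small nucleolar RNAs. Of the 60 genes, 23 (38.3%) held at least 1 small nucleolar RNA gene within their span, 50 such genes in all, against 526 of 20056 protein-coding genes (2.62%). The members lay on 19 chromosomes, and 11 of them (18.3%) lay on chromosome 19, which holds 7.23% of protein-coding genes. RefSeq lists 1368 pseudogenes named after the 60 members, from 4 for RPS9 to 95 for RPL23A. How reads that match several copies were counted, and with which strand setting, is not stated in the labels or notes, which leaves each member's count uncertain to that extent.

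The libraries differed in depth by group. Reads assigned to genes numbered 23999234 to 30156884 per ADAR3 IP library, 1875461 to 4946149 per pre-immune IP library and 4873428 to 12772412 per input library. Levels are given as CPM, a gene's reads scaled to a common total per library, so every value is a share of its library, and amounts of RNA recovered were not compared. The libraries are bulk, so how a message is spread over single cells cannot be told from them.

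Ribosomal protein messages took a smaller share of reads in both kinds of pull-down than in input, and the smallest share in ADAR3 IP. In input the 58 genes held 2.73%, 3.25%, 2.86% and 3.20% of assigned reads in replicates 1 to 4, a mean of 3.01% ± 0.254 (SD, n = 4). In pre-immune IP they held 1.27%, 1.64%, 1.54% and 1.34%, a mean of 1.45% ± 0.172 (SD, n = 4), which is 48.1% of the input share. In ADAR3 IP they held 0.833%, 0.760%, 0.878% and 1.02%, a mean of 0.872% ± 0.109 (SD, n = 4), which is 28.97% of the input share and 60.3% of the pre-immune share. The 3 groups did not overlap. This share is a description without a test.

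**Figure D1:**
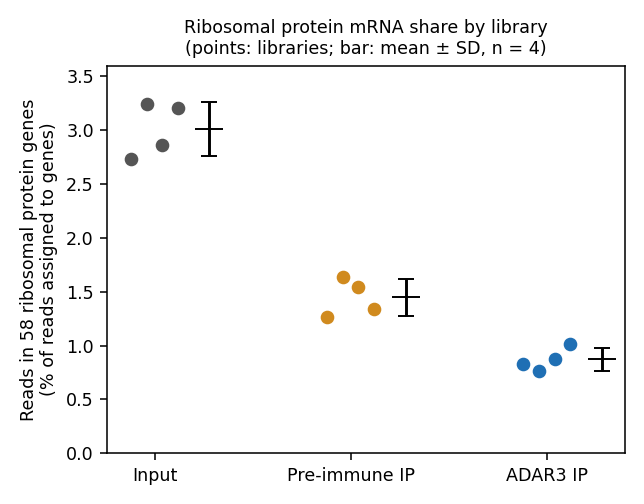
Share of assigned reads (percent, y axis) in the 58 ribosomal protein genes for input, pre-immune IP and ADAR3 IP; points are libraries and bars the mean ± SD of 4. Input libraries lie between 2.73% and 3.25%, pre-immune IP between 1.27% and 1.64%, and ADAR3 IP between 0.760% and 1.02%.

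Both subunits followed that order. The 29 small subunit genes held 1.31% ± 0.111 of reads in input, 0.625% ± 0.0619 in pre-immune IP and 0.339% ± 0.0445 in ADAR3 IP (SD, n = 4 each). The 29 large subunit genes held 1.70% ± 0.143, 0.822% ± 0.114 and 0.533% ± 0.0646 in the same order (SD, n = 4 each). Pre-immune IP kept a like part of both, 47.7% of the input share for the small and 48.4% for the large subunit, whereas ADAR3 IP kept 25.9% and 31.4%. Small subunit messages thus made up 43.6% ± 0.231 of the family's reads in input, 43.3% ± 1.58 in pre-immune IP and 38.9% ± 0.572 in ADAR3 IP (SD, n = 4 each). The 4 ADAR3 IP libraries, from 38.1% to 39.3%, lay below all other libraries, the lowest of which was a pre-immune IP at 41.2%.

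The comparison of ADAR3 IP with input asks which messages are over- or under-represented among the RNA recovered with ADAR3. Differences were tested with limma on log2(CPM + 0.1) over all genes with a mean of at least 10 CPM in the 8 libraries compared, with Benjamini-Hochberg adjustment at 0.05; fold changes below are on that scale, which understates the change of low genes. Of the 58 members with values, 57 passed the filter. All 57 were lower in ADAR3 IP than in input and 0 higher, against 38.0% lower and 33.0% higher of the 9849 genes tested. In all 57 the 4 ADAR3 IP libraries lay below the 4 input libraries, as they did for 34.6% of tested genes, while 29.3% of tested genes had them all above. The members' median log2 fold change was -1.91, or 26.5% of the input level, with a range of -2.98 to -0.94, beside a median of -0.06 over all tested genes.

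Head proteins of the small subunit, the part that moves during translocation, had the lowest median of the groups compared by region, -2.23 over 12 messages, against -1.91 over 17 messages of the body and platform. Their ranges overlapped, from -2.98 to -1.79 in the head and from -2.82 to -1.42 in the body and platform. In pre-immune IP over input the medians were -1.16 and -1.17. RPS20 (ENSG00000008988), a head protein, was the lowest member in ADAR3 IP over input. Its level was 295, 344, 339 and 341 CPM in input, 108, 146, 100 and 123 CPM in pre-immune IP, and 38.1, 39.8, 47.3 and 42.2 CPM in ADAR3 IP. The 3 groups were separate, and the log2 fold change of ADAR3 IP over input was -2.98 ± 0.0862 (SE; adjusted p = 5.34e-13, limma).

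RPS28 and RPS29, small proteins of the head, were also among the 5 lowest. RPS28 (ENSG00000233927) was at 149, 176, 165 and 186 CPM in input and at 29.5, 14.9, 24.9 and 19.5 CPM in ADAR3 IP, a log2 fold change of -2.97 ± 0.160 (SE; adjusted p = 2.99e-10, limma). RPS29 (ENSG00000213741) was at 180, 223, 215 and 222 CPM in input and at 25.7, 35.7, 24.6 and 35.0 CPM in ADAR3 IP, a log2 fold change of -2.81 (limma adjusted p = 3.86e-11). In each the highest ADAR3 IP library was far below the lowest input library. RPS21, of the body, and RPS13, a universally conserved protein of the body, changed by -2.82 and -2.67.

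The smallest falls were in large subunit messages. RPL3 (ENSG00000100316), whose protein reaches towards the peptidyl transferase centre, was at 686, 810, 706 and 781 CPM in input and at 392, 354, 378 and 433 CPM in ADAR3 IP, a log2 fold change of -0.94 ± 0.0788 (SE; adjusted p = 3.78e-08, limma). RPL14, RPL4, which lines part of the exit tunnel, RPL28 and RPL7A changed by -1.18, -1.19, -1.22 and -1.25 (limma adjusted p of 4.68e-09, 8.9e-09, 3.17e-09 and 1.06e-08). These 5 still fell by more than their spread between libraries, with no overlap between the groups. The large subunit median was -1.76 and the small subunit median -2.08.

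Among members with roles of their own, the order was mixed. RPS6 (ENSG00000137154), the target of S6 kinases, was at 971, 1133, 975 and 1101 CPM in input and at 348, 367, 406 and 450 CPM in ADAR3 IP, a log2 fold change of -1.42 (limma adjusted p = 1.12e-09). RPS19, the gene most often mutated in Diamond-Blackfan anaemia, changed by -2.01, RPS27A, made as a fusion with ubiquitin, by -2.11, and RPL10A, of the L1 stalk, by -2.03. RPS3, at the mRNA entry channel, changed by -1.89, RPL13A, known from translational silencing after interferon, by -1.90, and RPSA, also described as a laminin receptor, by -1.79. Since all libraries of both groups enter each of these tests, the values are shown side by side with those of the other comparisons and not correlated with them.

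Pre-immune IP also held less of these messages than input, which gives the background of the method. Of the 57 members tested, 52 were lower and 0 higher, against 5.7% lower and 1.45% higher of the 9772 genes tested (limma). The share of genes called depends on spread as well as on fold change. In pre-immune IP the median SD of log2 level was 0.34 for the members. It was 0.71 over the 9815 genes with a mean of at least 10 CPM over all libraries. In 56 members the 4 pre-immune libraries lay below the 4 input libraries, as in 17.9% of tested genes, in 0 above, as in 6.37%, and RPL28 alone overlapped. The median log2 fold change of the members was -1.10, or 46.6% of input, with a range of -1.71 to -0.40, beside -0.34 over all tested genes. Of all tested genes, 21.1% lay below the members' median here, against 2.10% in ADAR3 IP over input. The comparison shares its input libraries with the one before.

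The lowest member was RPS3A (ENSG00000145425), of the small subunit platform, at 201, 221, 208 and 218 CPM in input and at 48.3, 95.5, 105 and 35.7 CPM in pre-immune IP. The groups were separate but the pre-immune libraries spread widely, and the log2 fold change was -1.71 ± 0.322 (SE; adjusted p = 0.0134, limma). RPS29, RPS28, RPL6 and RPS20 followed at -1.70, -1.59, -1.58 and -1.48 (limma adjusted p of 0.0011, 0.00465, 0.00289 and 0.000388). RPS19, with the value nearest the median, changed by -1.10.

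The 5 members that did not pass were RPS26, RPS12, RPS27A, RPS27 and RPL28. RPL28 (ENSG00000108107) was at 342, 411, 356 and 408 CPM in input and at 192, 348, 372 and 272 CPM in pre-immune IP, with overlapping groups and a log2 difference of -0.40 ± 0.198 (SE; 95% interval -0.84 to 0.04; adjusted p = 0.259, limma). RPS27A was at 376, 424, 402 and 430 CPM in input and at 156, 172, 321 and 345 CPM in pre-immune IP, a log2 difference of -0.80 (limma adjusted p = 0.0896). In both, some pre-immune libraries lay close to input and others far below. The small and large subunit medians were -1.17 and -1.08. With a variance weight for each group, shared by all genes, 18 of the 57 members passed in place of 52. The genes lower over all tested then fell from 557 to 201.

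**Figure D2:**
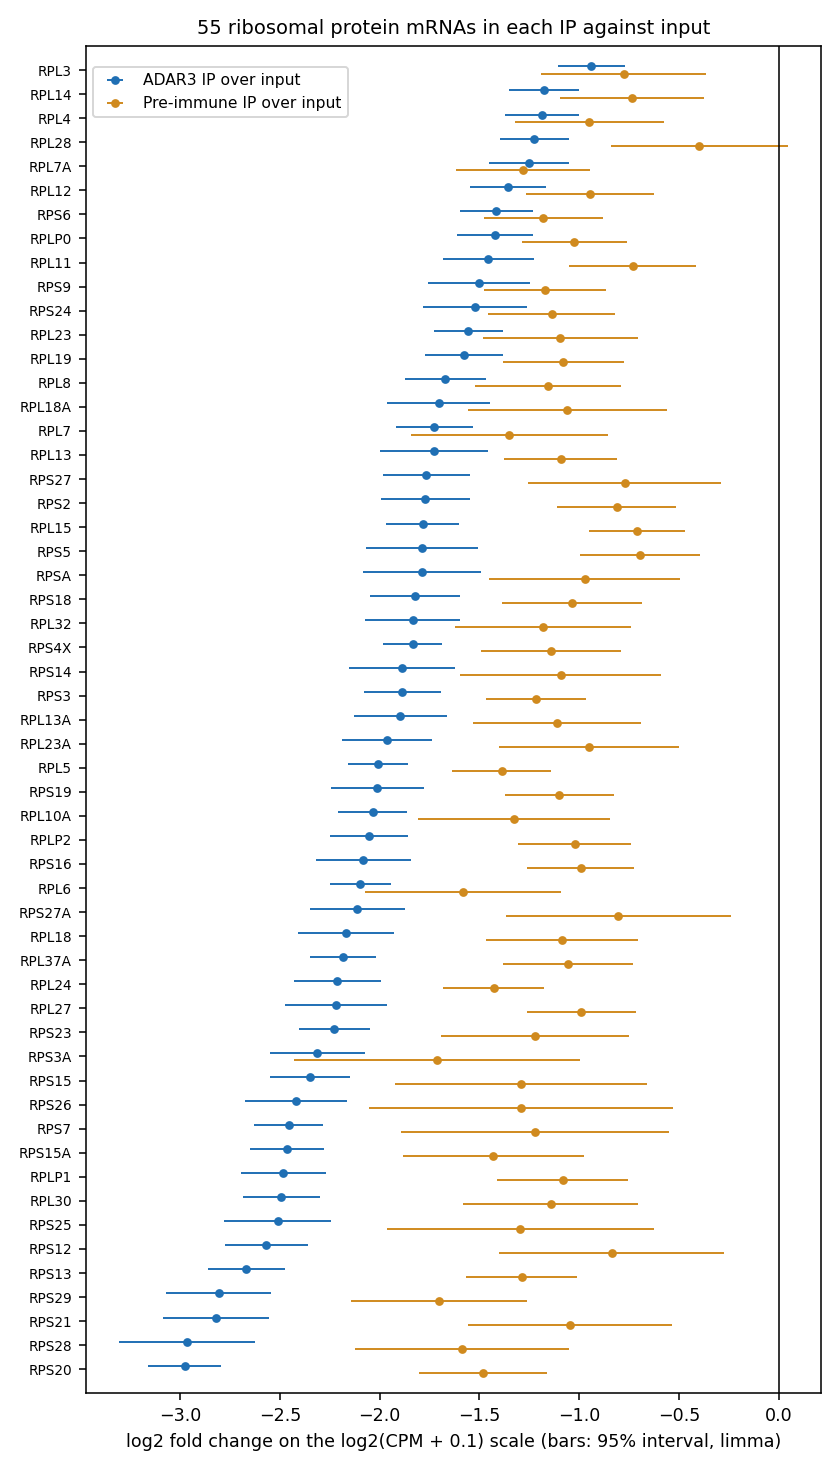
Log2 fold change over input (x axis, log2(CPM + 0.1) scale) of 55 of the 57 tested members, ordered by ADAR3 IP over input; points are limma estimates with 95% intervals, blue for ADAR3 IP and orange for pre-immune IP. ADAR3 IP values run from -2.98 (RPS20) to -0.94 (RPL3), and pre-immune IP values from -1.71 (RPS3A) to -0.40 (RPL28) with wider intervals.

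Set against pre-immune IP, the ADAR3 IP libraries address which messages come down with ADAR3 beyond unspecific recovery. No tested ribosomal protein message was called higher in ADAR3 IP. Of the 57 tested, 29 were lower, 0 higher and 28 did not pass, against 1.58% lower and 3.55% higher of the 9781 genes tested (limma). These shares also depend on the spread between pre-immune libraries, given above as 0.34 for the members and 0.71 over all genes. In 37 members the 4 ADAR3 IP libraries lay below the 4 pre-immune libraries, as in 5.78% of tested genes, in 0 above, as in 11.4% of tested genes, and in 20 the groups overlapped. The median log2 fold change was -0.81, or 56.98% of the pre-immune level, with a range of -1.78 to 0.03, and 56 of the 57 values were below 0. Over all tested genes the median was 0.26, so the members' median lay 1.07 below it, and each of the 57 lay below it.

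The 29 lower members made up 18.7% of the 155 genes called lower, while 57 of the 9781 genes tested were members. In the authors' deposited table for this comparison, 48 of 58 members were lower at an adjusted p under 0.05 and 0 were higher, with a median log2 fold change of -0.91, against 5.63% of 17946 genes lower. DESeq2 on the recovered reads called 49 members lower, against 8.14% of its tested genes, and edgeR 30, against 1.78%. The limma count fell to 16, 15 and 15 without ADAR3 IP replicate 1, 2 or 3. It fell to 13 with a variance weight for each group, shared by all genes. The genes lower over all tested fell from 155 to 61, 55, 56 and 55 in the same settings. ADAR3 IP libraries were also the deepest, and with every library thinned to 1875461 reads 24 members were lower and 0 higher, beside 142 genes lower and 342 higher of all 9781 tested.

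Small subunit messages had the lower median here too. Of 29 small subunit messages 17 were lower, with a median of -1.004, and of 28 large subunit messages 12 were lower, with a median of -0.65. In the head 8 of 12 passed, with a median of -1.10, in the body and platform 9 of 17 with -0.82, and in the large subunit outside the stalk, the 5S particle and the proteins around the mouth of the exit tunnel 7 of 20 with -0.65. Of all 9781 genes tested, 1.58% were lower, and whether a message passed depends on its spread as well as its fold change. These group values are descriptions without a test of the difference.

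RPS21 (ENSG00000171858) was lowest. It was at 167, 173, 126 and 82.6 CPM in pre-immune IP and at 40.0, 29.2, 39.1 and 47.5 CPM in ADAR3 IP, beside 234, 296, 264 and 299 CPM in input. The 3 groups were separate, and the log2 fold change of ADAR3 IP over pre-immune IP was -1.78 ± 0.279 (SE; adjusted p = 0.00492, limma). RPS12 (ENSG00000112306), a eukaryotic protein of the head, was at 104, 186, 205 and 269 CPM in pre-immune IP and at 54.3, 48.9, 51.4 and 64.4 CPM in ADAR3 IP, a log2 fold change of -1.73 ± 0.272 (SE; adjusted p = 0.00492, limma). Its pre-immune libraries spread over a wide range, but each lay above all ADAR3 IP libraries.

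RPS20 changed by -1.50 ± 0.208 (SE; adjusted p = 0.00239, limma), from the levels given above. RPS13 (ENSG00000110700) was at 131, 146, 132 and 122 CPM in pre-immune IP and at 48.6, 49.97, 47.6 and 57.2 CPM in ADAR3 IP, with little spread in either group and a log2 fold change of -1.38 ± 0.179 (SE; adjusted p = 0.0015, limma). RPS21, RPS12, RPS20, RPS13, RPLP1, RPLP2, RPL15, RPL27, RPL30 and RPL37A passed in every alternative run, each library left out in turn included, which is 10 of the 29. How many of all 155 genes called lower passed throughout was not counted, so this number has no background. RPL15, of the large subunit, changed by -1.08 ± 0.142 (SE; adjusted p = 0.00178, limma).

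The lateral stalk, which recruits the translation factors that hydrolyse GTP, has 4 members here, of which 2 passed. RPLP1 (ENSG00000137818), an acidic tip protein, was at 511, 626, 559 and 620 CPM in input, 236, 340, 299 and 230 CPM in pre-immune IP and 90.9, 101, 95.9 and 128 CPM in ADAR3 IP, a log2 fold change over pre-immune IP of -1.40 ± 0.182 (SE; adjusted p = 0.0015, limma). RPLP2 (ENSG00000177600), its partner at the tip, was at 200, 266, 206 and 237 CPM in pre-immune IP and at 109, 99.0, 104 and 132 CPM in ADAR3 IP, a log2 fold change of -1.03 (limma adjusted p = 0.00493). Both were separate between the groups.

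RPLP0 (ENSG00000089157), which anchors the tip proteins, was at 437, 490, 419 and 375 CPM in pre-immune IP and at 340, 282, 323 and 361 CPM in ADAR3 IP. These groups were separate by a small gap, and the log2 difference of -0.40 ± 0.131 did not pass (SE; adjusted p = 0.116, limma). RPL12 (ENSG00000197958), at the stalk base, was at 268, 285, 364 and 235 CPM and at 179, 218, 225 and 237 CPM, with overlapping groups and a log2 difference of -0.41 (limma adjusted p = 0.197). Against input the same 4 messages changed by -2.48, -2.05, -1.42 and -1.36 for RPLP1, RPLP2, RPLP0 and RPL12, and all 4 passed.

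RPL5 and RPL11 form the 5S particle, which carries 5S ribosomal RNA and binds MDM2 when ribosome assembly is disturbed. RPL5 (ENSG00000122406) was at 272, 316, 239 and 251 CPM in pre-immune IP and at 168, 163, 175 and 193 CPM in ADAR3 IP, separate groups with a log2 fold change of -0.62 ± 0.140 (SE; adjusted p = 0.0307, limma). RPL11 (ENSG00000142676) was at 295, 398, 432 and 296 CPM and at 206, 171, 211 and 272 CPM, also separate, with a log2 fold change of -0.72 (limma adjusted p = 0.0485).

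At the other end, 5 members had the values nearest to or above 0. RPL7A (ENSG00000148303) was at 391, 539, 364 and 336 CPM in pre-immune IP and at 372, 374, 405 and 495 CPM in ADAR3 IP, overlapping groups with a log2 difference of 0.03 ± 0.166 (SE; 95% interval -0.34 to 0.39; adjusted p = 0.936, limma). It is the only tested member above 0, and its sign turned under 6 of the alternatives. RPL3 was at 285, 507, 529 and 463 CPM and at 392, 354, 378 and 433 CPM, a log2 difference of -0.16 ± 0.188 (SE; 95% interval -0.58 to 0.25; adjusted p = 0.649, limma). RPS6 was at 373.4, 556, 431 and 501 CPM and at 348, 367, 406 and 450 CPM, a log2 difference of -0.24 ± 0.149 (SE; 95% interval -0.57 to 0.09; adjusted p = 0.414, limma).

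Those 3 pairs of groups overlapped. RPL4 and RPS9, which lies near the mRNA entry channel, differed by -0.24 and -0.33 (limma adjusted p of 0.482 and 0.375). A difference that misses the threshold does not show equal levels: the interval of RPL3 reaches down to -0.58. All 5 lay below the median of all tested genes.

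The remaining named members lay between. RPS19 was at 382, 426, 321 and 424 CPM in pre-immune IP and at 199, 163, 215 and 254 CPM in ADAR3 IP, a log2 fold change of -0.91 (limma adjusted p = 0.00957). RPS3 changed by -0.67 (limma adjusted p = 0.0213) and RPS27A by -1.31 (limma adjusted p = 0.0239).

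RPSA, RPL10A and RPL13A did not pass, with log2 differences of -0.82, -0.71 and -0.79 (limma adjusted p of 0.112, 0.112 and 0.0555). In RPL13A the pre-immune libraries were at 318, 541, 363 and 561 CPM and the ADAR3 IP libraries at 240, 211, 244 and 321 CPM, so the groups overlapped by a small margin. The SE of the 57 members ran from 0.131 to 0.445 in this comparison, beside a median of 0.0976 for ADAR3 IP over input.

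**Figure D3:**
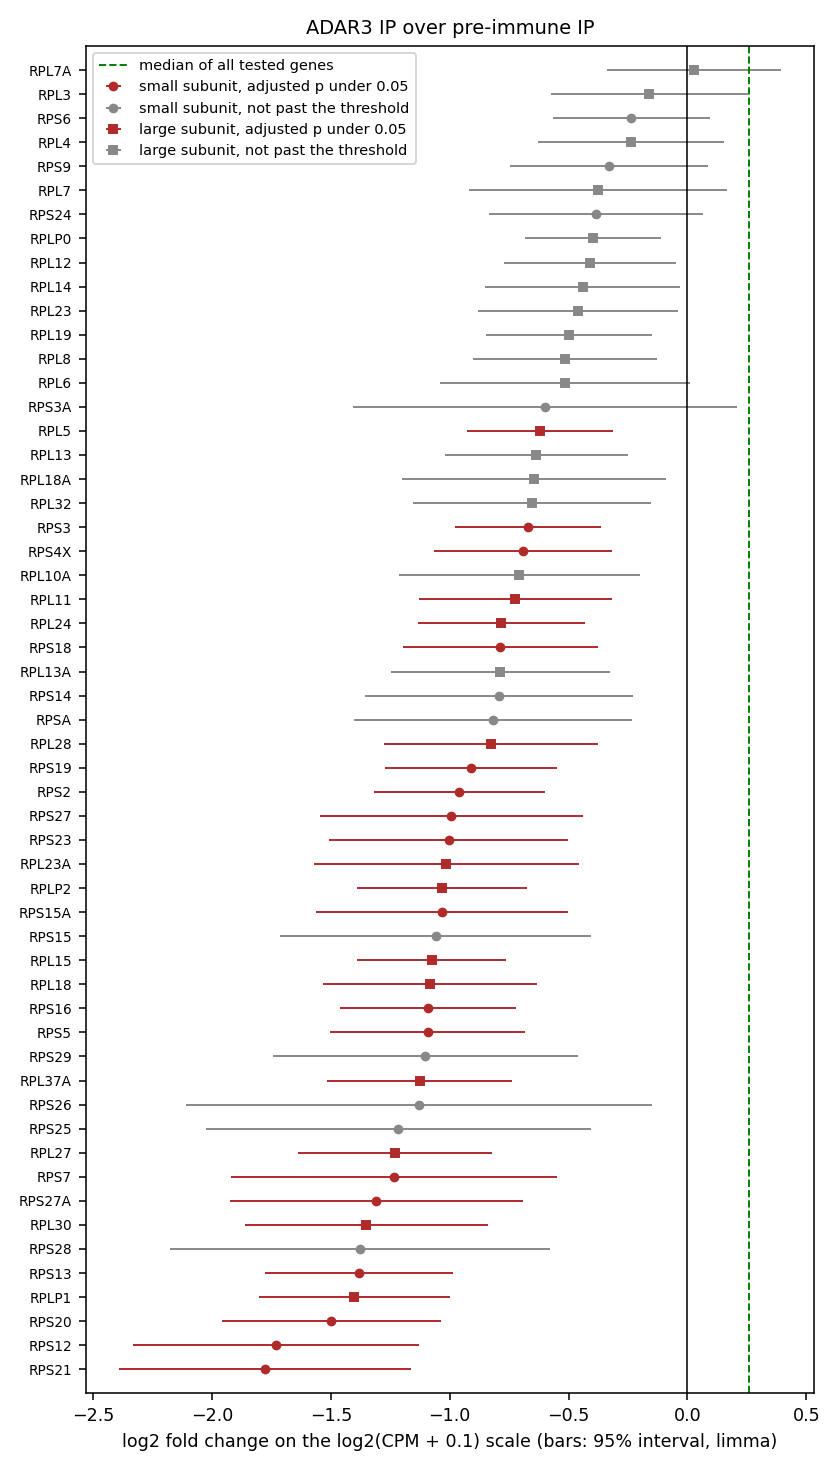
Log2 fold change of ADAR3 IP over pre-immune IP (x axis, log2(CPM + 0.1) scale) for 55 of the 57 tested members with 95% limma intervals; circles are small and squares large subunit messages, red past adjusted p of 0.05 and grey not. Values run from -1.78 (RPS21) to 0.03 (RPL7A), all left of the dashed median of all tested genes at 0.26.

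**Figure D4:**
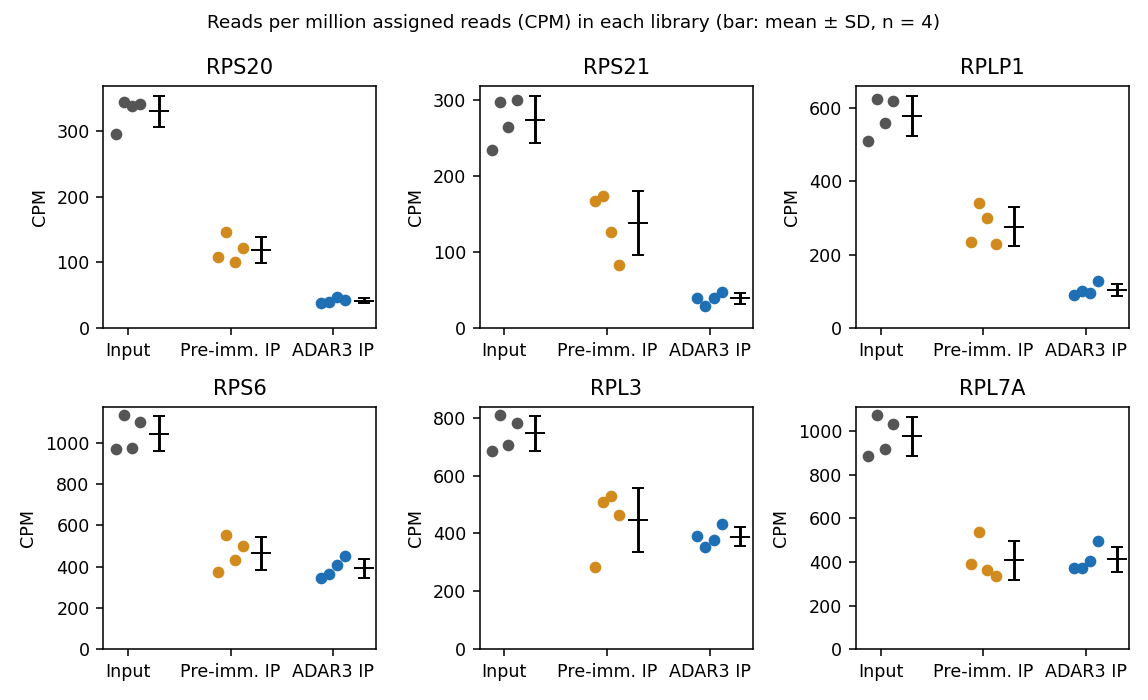
CPM (y axis) of 6 members in each library of the 3 groups; points are libraries and bars the mean ± SD of 4. RPS20, RPS21 and RPLP1 step down from input to pre-immune IP to ADAR3 IP, while in RPS6, RPL3 and RPL7A the 2 kinds of pull-down overlap below input.

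The family's inner composition moved with these differences. RPL3 made up 2.48% ± 0.03 of the members' reads in input, 3.06% ± 0.56 in pre-immune IP and 4.48% ± 0.24 in ADAR3 IP (SD, n = 4 each). RPL7A went from 3.24% in input to 2.81% in pre-immune IP and 4.72% in ADAR3 IP. RPS20 went the other way, from 1.098% to 0.83% and 0.48%, and RPS28 from 0.56% to 0.40% and 0.26%. Among libraries of a group, the members' log2 levels had Pearson correlations of 0.995 to 0.998 for input, 0.828 to 0.915 for pre-immune IP and 0.971 to 0.987 for ADAR3 IP, over 57 genes that share each library's depth. The median SD of a member's log2 level was 0.13 for input, 0.34 for pre-immune IP and 0.20 for ADAR3 IP, so the pre-immune libraries spread most. Over the 9815 genes with a mean of at least 10 CPM it was 0.10, 0.71 and 0.19 in the same order.

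Features that the choice of members did not use were set beside the fold changes as descriptions. The 27 tested members with a TOP start at the outer gene start had a median log2 fold change over input of -1.90 for ADAR3 IP and -1.09 for the pre-immune control. The 15 whose outer start lacked a tract had -1.83 and -1.14. For ADAR3 IP over pre-immune IP the medians were -0.82 and -0.72. Some of these 15, RPS27A and RPL11 among them, had a TOP tract at another listed start. Both kinds of start occurred at both ends: RPS21 and RPL7A each had a TOP start, and RPS28 and RPL3 did not. Members with a small nucleolar RNA gene in their span had a median over pre-immune IP of -0.67 (23 genes), against -0.999 for those without (34 genes). For ADAR3 IP over input these medians lay closer, at -1.89 and -2.06. Universally conserved proteins and those found only in eukaryotes and archaea had medians over pre-immune IP of -0.79 and -0.87. Members with more than the median of 13.5 named pseudogenes had -0.79, and the others -0.82. Across the 57 members, input CPM and the log2 fold change of ADAR3 IP over pre-immune IP had a Spearman rho of 0.48; CPM also rises with message length, which was not used here.

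RPL26 (ENSG00000161970), beside the exit tunnel, was the 1 member with values that did not pass the filter. It was at 2.82, 4.15, 4.31 and 4.33 CPM in input, 0, 2.86, 0.456 and 0 CPM in pre-immune IP, and 1.21, 0.531, 0.441 and 2.08 CPM in ADAR3 IP. The counts behind these were 141 reads in input, 10 in pre-immune IP and 113 in ADAR3 IP, each over 4 libraries. All ADAR3 IP libraries lay below all input libraries, and the pre-immune libraries spanned the ADAR3 IP range. RefSeq lists 36 pseudogenes named after it.

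**Figure D5:**
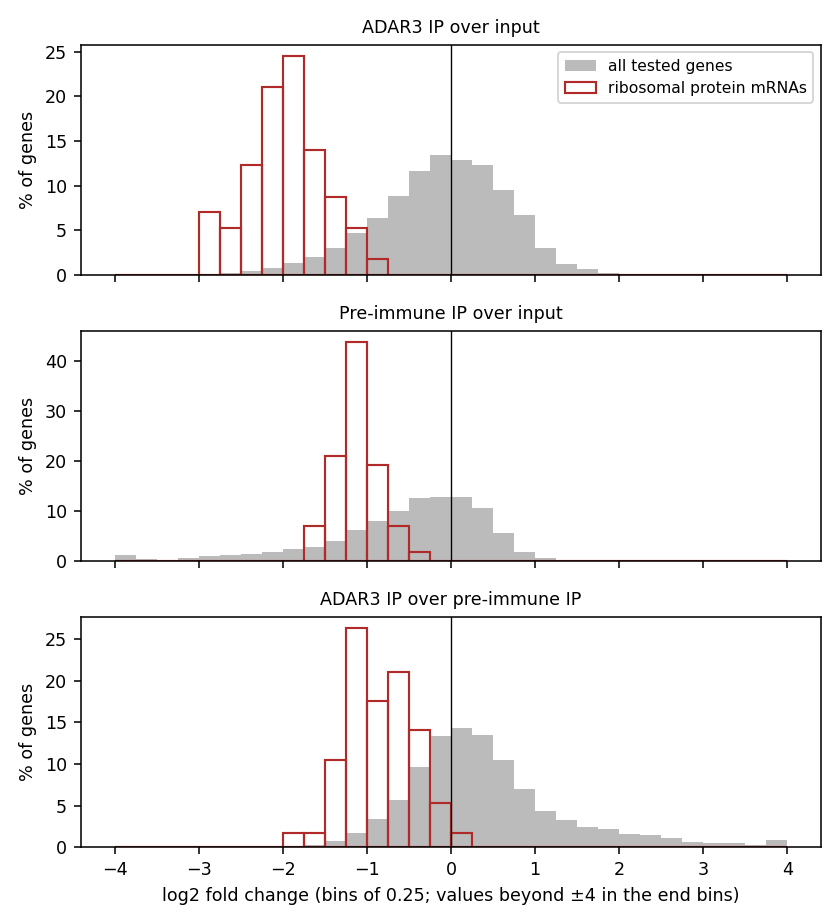
Percent of genes (y axis) by log2 fold change (x axis, bins of 0.25) for all tested genes (grey) and the 57 tested members (red outline) in the 3 comparisons. The members' median is -1.91, -1.10 and -0.81 for ADAR3 IP over input, pre-immune IP over input and ADAR3 IP over pre-immune IP, beside -0.06, -0.34 and 0.26 for all tested genes.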

How the data were processed

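RNA was measured in 12 libraries, whose titles give 3 groups of 4. The authors deposited 1 table for the pull-downs and 1 for input, whose values are a normalized signal, each library's gene counts over its size factor, and the pull-down table also holds their deposited log2 fold changes and p-values. Per the submitters' processing notes the build was GRCh38 and the tools were featureCounts, STAR 2.7.7a and DESeq2, with no role given; the annotation is not given in the sources used here. At a tolerance of 0.001 reads, 100% of values were whole multiples of 1 read, so whole reads were recovered. A gene absent from either table was counted as having no reads in that table's libraries. Scaling the reads to CPM put the separately normalized tables on 1 scale. Tests used limma 3.58.1 in R 4.3.3 (trend, pairwise groups, pseudocount of 0.1 CPM, mean CPM of at least 10). Benjamini-Hochberg adjustment was over all tested genes at 0.05. A check on simulated data was run beforehand, and its outcome is not reported here. Alternatives were edgeR 4.0.16, DESeq2 1.42.0, other scalings, filters, pseudocount and variance weights, equal depth, a replicate block and each library left out. Members with the 5 highest and 5 lowest fold changes, the one nearest the median and 13 chosen by role are named, with RPL26 and the members that missed the threshold or passed throughout named after their values were seen; a few members are not reported by name. The members and lists were chosen with earlier results of these data known. Same-numbered libraries did not deviate together in every pair (correlations of -0.121 to 0.364 over the 3 comparisons), so numbers were not taken as pairs. Other ribosomal protein genes, translation factors, cell type markers and the gene of ADAR3 itself were not analysed here. Intervals cover the spread between libraries.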

Additional observations from a re-analysis of the deposited data

Results flagged for a closer look

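In 90 sets of 4 libraries (the levels of the named members in each group, and the members' share of reads), 3 held a library far from the other 3 by Dixon's criterion at 95%, which chance alone marks in about 1 of 20 sets. In pre-immune IP, RPS3 was at 291.1 CPM in replicate 2 against 247.4 to 250.7 in the others, and RPS9 at 128.0 CPM in replicate 4 against 165.2 to 170.1. In input, RPS20 was at 295.2 CPM in replicate 1 against 339.0 to 344.3.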

How the results depend on the processing

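For ADAR3 IP over input, all 57 tested members stayed lower under every alternative run, and leaving out a library moved their median between -2.01 and -1.87. Among all 9849 genes tested there, the 3740 lower became 3842 with TMM factors, 3438 with DESeq2 and 3240 at equal depth. They ran from 3459 to 3807 with a library left out, and with no filter 4420 of 31225 genes were lower. For ADAR3 IP over pre-immune IP, the 29 lower members became 49 with DESeq2 and 13 with group variance weights, 24 with the replicate block, 25 with TMM factors, 24 at equal depth, 39 with totals without the 9 genes that hold over 1% of any library, and 15 to 34 with a library left out; the median then ran from -0.91 to -0.70. For pre-immune IP over input, the 52 became 18 with group variance weights and 56 with the replicate block, and 40 to 55 with a library left out; the median ran from -1.18 to -1.06 and was -0.87 with totals without dominant genes. No member was called higher under any alternative. Over all tested genes, the 155 lower in ADAR3 IP over pre-immune IP became 107 with the replicate block. They became 140 with TMM factors and 142 at equal depth. The 557 lower in pre-immune IP over input became 503 with the replicate block. Equal depth and totals without dominant genes were added after seeing the data. Leaving out a library moved the members' share of reads between 2.93% and 3.10% for input, 1.38% and 1.51% for pre-immune IP, and 0.824% and 0.910% for ADAR3 IP. The sign of RPL7A in ADAR3 IP over pre-immune IP turned with the deposited values (-0.053), DESeq2 (-0.078), totals without dominant genes (-0.15), and without ADAR3 IP replicate 4 (-0.063) or pre-immune replicate 3 (-0.018) or 4 (-0.055); with a library left out it reached 0.171 at most. The cause was not tested.

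Over all genes, other scalings within limma moved the median of ADAR3 IP over pre-immune IP from 0.26 to between 0.083 and 0.32, and that of pre-immune IP over input from -0.34 to between -0.34 and -0.11. With edgeR and DESeq2, which also change the model, the medians were 0.09 and -0.06 for the former and -0.081 and 0.065 for the latter. Under the settings that kept all libraries, the members' median minus that of all tested genes ran from -1.31 (no filter) to -0.86 (DESeq2) for ADAR3 IP over pre-immune IP, and from -1.01 (DESeq2) to -0.53 (no filter) for pre-immune IP over input. Of the genes called in ADAR3 IP over pre-immune IP, 69.1% were higher, against 55.6% with the deposited values, 45.0% with DESeq2 and 40.2% without dominant genes; in pre-immune IP over input it was 20.3%, against 55.9% and 56.8% with the latter settings. The 347 genes higher and 155 lower in ADAR3 IP over pre-immune IP became 626 and 765 with DESeq2, 218 and 55 with group variance weights, and 199 and 296 without dominant genes, and the higher ones 822 at a mean CPM of at least 1 and 1615 with no filter; with a library left out they ran from 147 to 579 and from 55 to 311. The 142 higher and 557 lower in pre-immune IP over input became 12 and 201 with group variance weights and 449 and 342 without dominant genes; the higher ones became 1014 with DESeq2, 76 with the replicate block and 282 with no filter, and the lower ones 961 at a mean CPM of at least 1 and 4114 with no filter; with a library left out they ran from 21 to 361 and from 212 to 973.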
